A study of Bos taurus with 16 samples.

Results

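The S100 alarmins and calgranulins described here are 10 genes, S100A8, S100A9, S100A12, S100A1, S100A2, S100A4, S100A6, S100A10, S100A11 and S100A14, measured on arrays in blood leucocytes (circulating white blood cells, WBC) and in the endometrium of dairy cows with and without subclinical endometritis (SCE). Their probes were taken by name: every probe that the array files assign to 1 of these gene symbols was kept, whatever its values. This gave 21 of the 46615 probes and 10 of the 26554 gene and transcript names on the array. The genes themselves were chosen with earlier results of these data known. The study compared 4 multiparous Holstein cows with SCE (cows 718, 833, 836 and 846) with 4 healthy cows (cows 841, 850, 877 and 883). Each cow gave 1 blood sample and 1 endometrial biopsy at 45 to 55 days post-partum, so that 4 groups of 4 arrays were formed, WBC of healthy cows, WBC of SCE cows, endometrium of healthy cows and endometrium of SCE cows. SCE was diagnosed from endometrial histology and cytology in cows with no clinical sign of uterine disease, and the histology scored the inflammatory cells themselves, neutrophils among them. The enrolled cows were between 4 and 10 years old. By the paper, the SCE group held more luteal than follicular cows and the healthy group equal numbers. The phases are not tied to single arrays. The paper also reports that phase affected several endometrial genes in healthy cows, so phase and SCE are partly mixed in the endometrium. WBC RNA came from whole blood and the biopsies were whole tissue, so each value is an average over many cell types.

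S100 proteins are small calcium-binding proteins that carry EF-hand loops, and most of them work as dimers. S100A8 and S100A9 form calprotectin, a heterodimer that fills the cytosol of neutrophils and monocytes, withholds zinc and manganese from bacteria and, once released, acts as an alarmin on TLR4 and RAGE. S100A12 is another calgranulin of the same cells. The other members act mostly inside the cell: S100A4 binds non-muscle myosin, S100A6 binds CACYBP, S100A10 and S100A11 bind annexins, S100A1 regulates calcium handling, and S100A2 and S100A14 are known from epithelia.

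Stretches of 5 probes are printed because they show what the arrays measured for the 3 calgranulins and for the epithelial members. The first pair lies in a reading frame without a stop codon, and the capitals mark the calcium-binding loop, which in S100A9 is cut short by the end of the probe. The other stretches are the last 30 bases of their probes, and the capitals there mark a poly(A) signal. All are written 5′ to 3′ as the probe's sense strand, with positions on the build the array files name, HGSC Btau_3.1.
S100A9, chr3:18511639-18511698: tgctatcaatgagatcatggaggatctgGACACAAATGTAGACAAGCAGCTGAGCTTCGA
S100A12, chr3:18500122-18500181: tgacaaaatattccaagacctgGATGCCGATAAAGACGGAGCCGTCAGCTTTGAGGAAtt
S100A8, chr3:18482938-18482967: cccctggactcgtgcctgcagagtAATAAA
S100A14, chr3:18167009-18167038: aggatgatggttgttttgtatcatttgatt
S100A2, chr3:18209923-18209952: cttttttagttttactcAATAAActttttt

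The S100A8 and S100A2 stretches hold the poly(A) signal AATAAA, and the S100A14 stretch does not. The letters AATAAA, read on the printed strand only, stood in 6 of the 21 member probes and in 9.5% of the 46615 probes. This is a match of letters within a probe, and it says nothing of sites outside it.

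All members with a listed position lay on chromosome 3. From S100A1 (18060552) through S100A14, S100A2, S100A4, S100A6, S100A8 and S100A12 to S100A9 (ending at 18513835) they formed 1 group of neighbours, while S100A11 (starting at 20242271) and S100A10 (ending at 20282468) lay together further along the chromosome. Of the 21 probes, 16 were designed from RefSeq mRNAs, 4 from expressed sequence tags (ESTs) and 1 from a predicted transcript. Probes of 1 gene were not independent measurements. The S100A1 pair shared 57 bases with 1 difference (A54C, counted from 1 at the 5′ end of the shared stretch, probe A_73_P033161 first), a pair of S100A11 probes shared 56 bases with 1 difference (G54A, probe A_73_P435331 first), a pair of S100A4 probes shared 42 bases, and a pair of S100A12 probes shared 29 bases. The EST probes of S100A9 and S100A6 were listed in the direction opposite to the other probe of their gene, and it is not known which strand's RNA they measured.

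Levels are given as log2 intensities after quantile normalization over all 16 arrays, and a difference of 1 on this scale is a 2-fold difference. A level is compared only within 1 probe, since brightness differs between probes for reasons other than RNA. Of the 21 probes, 14 were well above background on all 16 arrays, by the scanner software's own mark, 19 were so on all 4 arrays of at least 1 group, and 1, the EST probe of S100A6, on no array. Each tissue had a slide to itself, which means that a slide effect and a tissue effect cannot be told apart. The endometrium array of SCE cow 833 was the dimmest of its tissue, with a median signal of 79 above background against 248 to 316 on the other endometrium arrays, and 64.7% of its spots were well above background, the lowest share of the 16 arrays (64.7% to 79.8%). Differences between SCE and healthy endometrium are therefore also given without this cow.

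The tissues were told apart by far larger differences than SCE and healthy cows. Between endometrium and WBC, 3 probes of the members were higher in endometrium and 14 were lower (limma TREAT, which tests whether a change exceeds 1.2-fold, Benjamini-Hochberg adjusted p at or below 0.05). Over all probes tested, 22.7% were higher and 31.2% lower. The members' median difference was -1.28 on the log2 scale, and that of all probes -0.16. Without cow 833 the members' counts were 3 higher and 15 lower. In this bulk RNA, fewer cells of a type and less RNA per cell cannot be told apart.

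**Figure D1:**
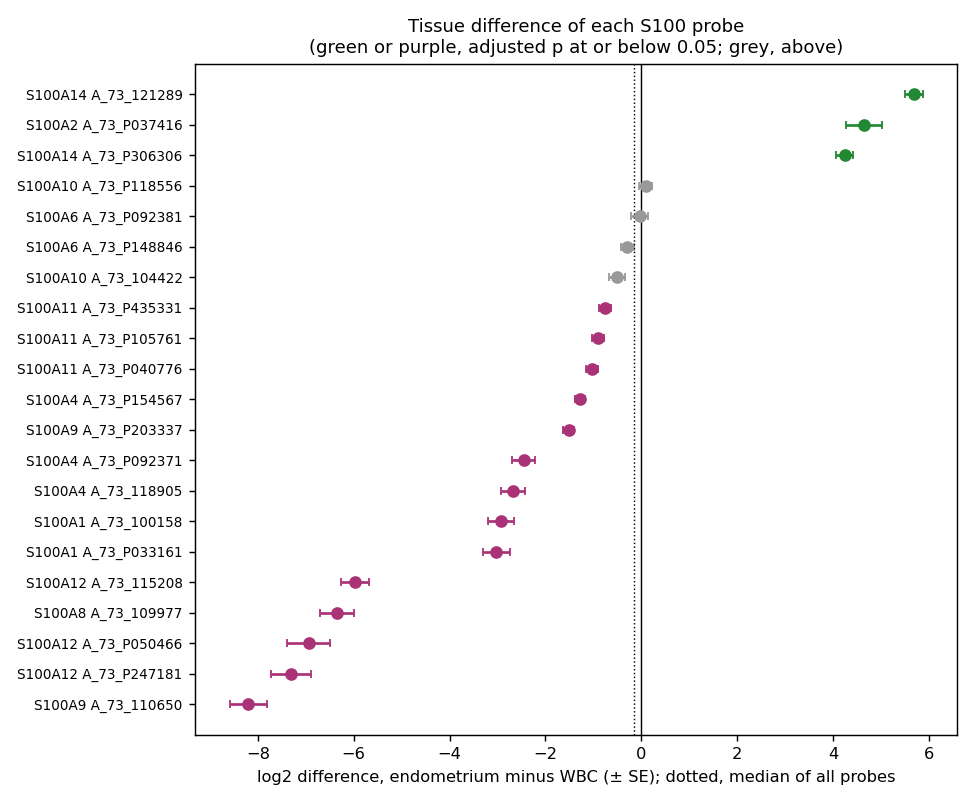
Endometrium minus WBC, as a log2 difference, for the member probes, with 1 point and its SE per probe (8 cows) and a dotted line at the median of all probes. The mRNA probes of S100A8, S100A9 and S100A12 lie furthest below 0, between -8.20 and -5.98, those of S100A14 and S100A2 lie above 0, and the probes of S100A10 and S100A6, in grey, did not pass the test.

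The calgranulins showed the widest gap, with WBC above endometrium in all 8 cows. The S100A8 probe read 13.94, 13.67, 14.17 and 13.95 in WBC of healthy cows 841, 850, 877 and 883, and 13.93, 14.62, 14.71 and 13.37 in WBC of SCE cows 718, 833, 836 and 846. In the endometrium of the same healthy cows it read 7.19, 6.84, 7.23 and 6.31, and in that of the SCE cows 8.16, 10.45, 7.36 and 8.01. Every WBC value thus lay above every endometrium value, and cow 833 came closest. The tissue difference was -6.35 (SE 0.35, 81.5-fold lower in endometrium, limma TREAT adjusted p = 3.58e-10), and ran from -7.63 to -4.17 over the 8 cows. In order of level, WBC of SCE cows (14.16 ± 0.63, SD, n = 4) and of healthy cows (13.93 ± 0.20) overlapped, the endometrium of SCE cows came next (8.50 ± 1.35), and that of healthy cows was lowest (6.89 ± 0.43).

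S100A9, the partner of S100A8, was also far lower in endometrium. Its mRNA probe read 14.76, 14.92, 15.16 and 15.14 in WBC of the healthy cows, and 14.94, 14.92, 15.40 and 15.00 in WBC of the SCE cows, taken in the same order of cows as above. In the endometrium it read 6.14, 6.05, 6.97 and 6.08 in healthy cows and 7.36, 9.62, 6.42 and 5.99 in SCE cows. Only 2 of the 4 healthy and 3 of the 4 SCE endometrium arrays were well above background for it, so the lowest of these values are near the floor of the array and the size of the difference depends on how background is treated. The measured difference was -8.20 (SE 0.38, limma TREAT adjusted p = 4.35e-11), with single cows between -9.06 and -5.30, and it was -10.09 with the scanner software's background-subtracted processed signal, scaled to the 75th percentile. The EST probe of S100A9 was well above background on no endometrium array, and on 2 healthy and 4 SCE arrays of WBC. WBC was at least 2.15-fold higher by it in healthy cows and at least 2.24-fold higher in SCE cows. Such a bound sets the dim group, per array, at the lowest signal of any probe well above background, or its own signal if higher. The limma TREAT adjusted p of the tissue difference was 1.17e-07.

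S100A12 was measured by 3 probes, all lower in endometrium, by -5.98 (SE 0.29), -6.94 (SE 0.45) and -7.31 (SE 0.42). The last is the probe printed above, which read 15.17, 15.36, 15.75 and 15.60 in WBC of healthy cows and 15.49, 16.60, 15.76 and 14.85 in WBC of SCE cows. It read 7.42, 7.64, 8.43 and 6.90 in the endometrium of healthy cows and 9.42, 10.95, 8.02 and 7.34 in that of SCE cows. No WBC array overlapped an endometrium array on any of the 3 probes. The adjusted p lay between 7.57e-11 and 5.71e-09 (limma TREAT). For the probes of the calgranulins with 16 values, the two-sided exact sign-flip permutation test over 8 cows gave p = 0.0078, the smallest it can give. On probe A_73_P050466 the WBC value of cow 877 was marked as an outlier spot by the scanner software and dropped.

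**Figure D2:**
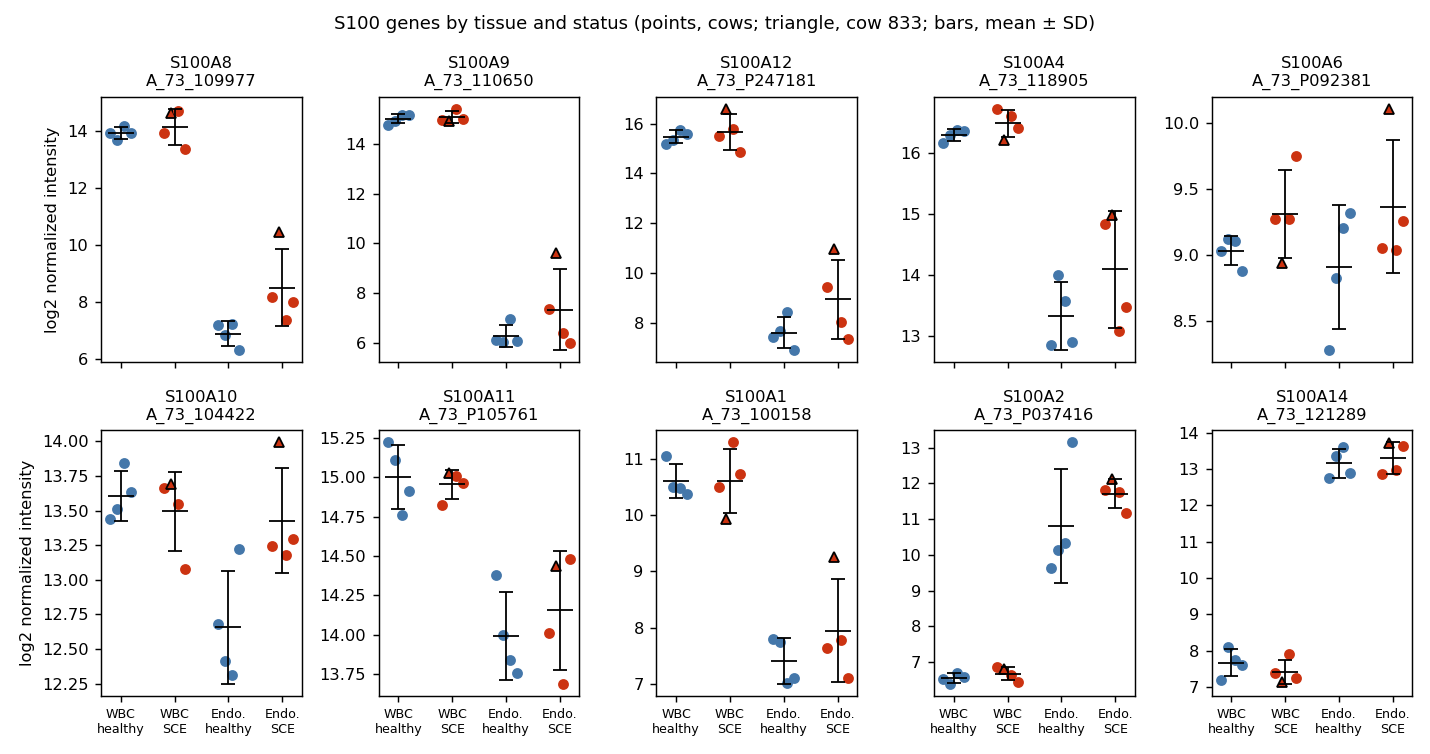
Log2 normalized intensity of the members in the 4 groups, 1 probe per gene and 1 point per array (a triangle for cow 833), with the mean and SD of each group. WBC lies above endometrium for the calgranulins, S100A4, S100A11 and S100A1, the order is turned for S100A2 and S100A14, and the SCE endometrium of S100A8, S100A9 and S100A12 is widely spread, with cow 833 highest.

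The members that act inside the cell ranged from well below WBC to level with it. S100A4, which binds non-muscle myosin and is known from motile cells, was lower in endometrium by -2.68 (SE 0.26) and -2.45 (SE 0.24) on its mRNA probes (limma TREAT adjusted p = 4.47e-07 and 6.01e-07). On the first of them it read 16.16 to 16.37 in WBC of healthy cows and 16.20 to 16.72 in that of SCE cows, against 12.85 to 14.003 and 13.08 to 14.98 in endometrium. Its EST probe was well above background on no endometrium array, and on 2 healthy and 4 SCE arrays of WBC. WBC was at least 1.95-fold higher by it in healthy cows, a bound that rests partly on dim WBC values. In SCE cows WBC was at least 2.36-fold higher. S100A1, known from muscle calcium handling, was lower in endometrium by -2.94 (SE 0.27) and -3.03 (SE 0.28) on overlapping probes, and single cows ran from -3.83 to -0.67. The cow at the upper end was 833, whose S100A1 level in endometrium was 9.25 on the first probe while the others ran from 7.01 to 7.79.

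S100A11, a partner of annexin A1, was lower in endometrium by -1.02, -0.90 and -0.76 on its 3 probes (SE 0.13 each, limma TREAT adjusted p = 4.99e-05, 2.95e-04 and 0.00165). All 8 cows had less in endometrium on each probe. Under normalization within each tissue, which moved the median of all probes from -0.16 to 0.35, the last 2 of these differences were -0.51 and -0.37 and did not pass (adjusted p = 0.0685 and 0.312). S100A10, which joins annexin A2 at the membrane, differed by -0.51 (SE 0.16) on its mRNA probe and did not pass the test (limma TREAT adjusted p = 0.121), with endometrium higher in 2 of 8 cows. Within healthy cows alone it was -0.95 and passed (adjusted p = 0.0106), and within SCE cows -0.07 (adjusted p = 0.965). With the processed signal the difference over all cows was -0.97 and passed (adjusted p = 0.00157). S100A6, a partner of CACYBP, differed by -0.03 (SE 0.18, adjusted p = 1) on its probe from the predicted transcript, and cows ran from -0.75 to 1.17. Under normalization within each tissue it was 0.96 higher in endometrium (adjusted p = 0.0023), so the direction of S100A6 is not settled by these arrays. The EST probes of S100A10 and S100A6 gave differences of 0.09 and -0.29, neither past the test, at levels close to background.

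S100A14 and S100A2, known from epithelia, were higher in endometrium in all 8 cows. S100A14 was 5.69 (SE 0.18, 51.6-fold) higher on the probe printed above and 4.24 (SE 0.17) higher on the other, with limma TREAT adjusted p = 6.47e-13 and 1.13e-11. The second probe was well above background on only 3 of 4 healthy and 2 of 4 SCE arrays of WBC, so its size is uncertain too. The printed probe read 12.77, 13.36, 13.62 and 12.90 in the endometrium of healthy cows and 12.87, 13.71, 12.98 and 13.64 in that of SCE cows, and 7.15 to 8.09 over the 8 WBC arrays. SCE and healthy cows were mixed throughout this range. The probe did not rise with the mean over the epithelium markers described below. In the endometrium of cows 841, 718, 883 and 836 it read 12.77 to 12.98, at marker means of 11.20 to 11.59. In that of cows 877, 850, 846 and 833 it read 13.36 to 13.71, at marker means of 9.66 to 10.49. Which cells held the RNA of S100A14 or S100A2 was not tested. The S100A2 probe was 4.64 higher in endometrium (SE 0.37, limma TREAT adjusted p = 3.39e-08) and read 9.63, 10.13, 10.34 and 13.15 in healthy cows, where cow 883 stood far above the rest. In SCE cows it read 11.82, 12.11, 11.76 and 11.16, and in WBC 6.40 to 6.85, where 2 of 4 arrays of each group were well above background. With the processed signal the difference was 5.65 for S100A2, 5.25 for the second S100A14 probe, -7.21 for S100A8 and -8.05 for the printed S100A12 probe, and with normalization within each tissue it was -2.05 and -2.15 for S100A1, all past the test in the direction given.

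For the question whether SCE is accompanied by more alarmin RNA in the tissue, SCE and healthy cows were compared within the endometrium. No member passed the adjusted threshold there, as was the case for 0% of all probes (0 of 46598). At an unadjusted p at or below 0.05, 2 of 21 member probes passed, S100A8 and S100A10, against 0.453% of all probes (211). Without a fold threshold the same 2 passed (limma unadjusted p = 0.0288 and 0.0161), where 936 probes did in all. All 21 member probes had a mean above that of healthy cows, while 49.1% of all probes did, and the members' median difference was 0.53 against -0.0046. Probes of 1 gene, and members sharing a cow with high values, are not independent of each other. The members were also chosen with earlier results of these data known, so the shares are descriptions only. The groups were also unbalanced for cycle phase, whose part in these differences was not tested.

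The S100A8 difference in endometrium was 1.60 (SE 0.61, 3.04-fold higher in SCE cows, limma TREAT unadjusted p = 0.0359, adjusted p = 1). It was the only member whose groups did not overlap in endometrium: the lowest SCE cow (836, 7.36) lay just above the highest healthy cow (877, 7.23). SCE values lay above healthy values without overlap for 0.7% of all probes. The two-sided exact permutation test over 4 against 4 cows gave p = 0.0286, the smallest it can give. Without cow 833 the difference was 0.95 (limma TREAT unadjusted p = 0.0236), and leaving out the other cows in turn gave differences up to 1.98. Leaving out healthy cow 841, 850 or 883 took the unadjusted p to 0.0501, 0.0673 and 0.0857. Within the rows of the slide, which held 2 SCE and 2 healthy cows each, it was 2.29 in row 1 and 0.91 in row 2.

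S100A9 and S100A12 had the same order of cows at the top, with 833 first and 718 second, and the remaining SCE cows below the highest healthy cow. The S100A9 difference was 1.04 (SE 0.72, limma TREAT unadjusted p = 0.208), and 0.28 without cow 833. The 3 S100A12 probes differed by 0.87 (SE 0.46), 1.26 (SE 0.74) and 1.33 (SE 0.74), with unadjusted p from 0.121 to 0.145, and by 0.44, 0.69 and 0.66 without cow 833. Both high cows lay in row 1 of the slide. The S100A9 difference was 2.40 in row 1 and -0.32 in row 2, and on the printed S100A12 probe it was 2.65 in row 1 and 0.02 in row 2. Row and cow cannot be told apart here, and neither gene passed the test in the whole set.

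**Figure D3:**
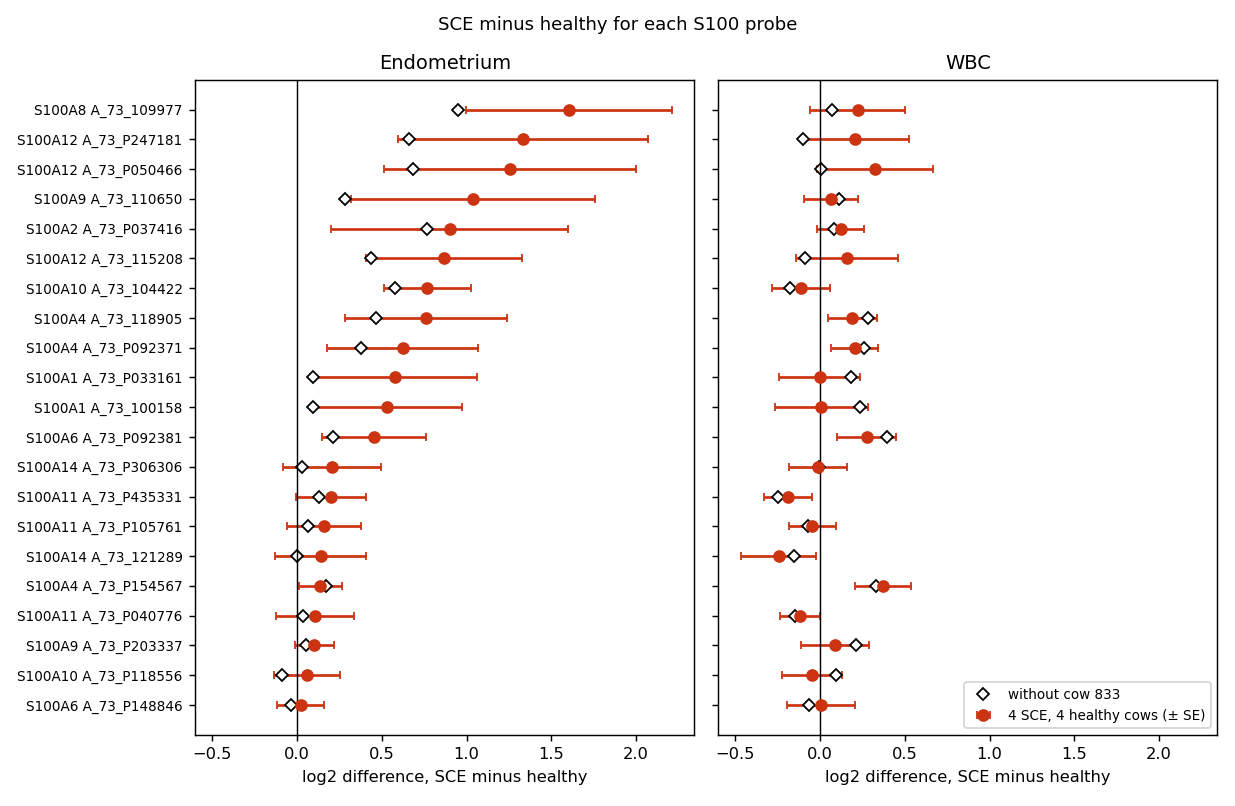
SCE minus healthy, as a log2 difference with its SE, for each member probe in endometrium and in WBC (4 SCE and 4 healthy cows each), and without cow 833 as open diamonds. In endometrium all 21 differences lie above 0 and the calgranulins reach furthest, while in WBC they lie close to 0 on both sides.

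S100A10 was the second member below the unadjusted threshold. Its mRNA probe read 12.68, 12.41, 12.32 and 13.225 in the endometrium of healthy cows and 13.24, 13.99, 13.18 and 13.30 in that of SCE cows. Healthy cow 883 lay within the SCE values and the other healthy cows below all of them. The difference was 0.77 (SE 0.26, 1.70-fold, limma TREAT unadjusted p = 0.0426, adjusted p = 1), and the exact permutation test gave p = 0.0571. It was 1.07 in row 1 of the slide and 0.47 in row 2. It was 0.58 without cow 833 (limma TREAT unadjusted p = 0.0988), and the unadjusted p also lay above 0.05 without cow 841, 846, 850 or 877 (0.0531 to 0.103).

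The remaining members did not pass the unadjusted threshold. S100A4 differed by 0.76 (SE 0.48) and 0.62 (SE 0.45) on its mRNA probes, S100A2 by 0.90 (SE 0.70), S100A1 by 0.53 (SE 0.44) and 0.58 (SE 0.48), and S100A6 by 0.46 (SE 0.31). S100A2 turned on healthy cow 883, without which the difference was 1.68 and the unadjusted p 0.000567 (limma TREAT), though 0 members passed adjusted. It was 0.77 without cow 833. Without cow 833 the S100A4 differences were 0.47 and 0.38, that of S100A6 was 0.21, and those of S100A1 were 0.096 and 0.093. S100A14 differed by 0.14 and 0.21 (0.0021 and 0.029 without cow 833), and S100A11 by 0.11 to 0.20 (0.037 to 0.13 without it). The 4 EST probes differed by 0.02 to 0.14, and by -0.09 to 0.17 without cow 833.

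Cow 833 was the highest of the 8 cows in endometrium for 16 of the 21 member probes. The same count over all probes is not given, so it is not known whether this is particular to the S100 genes. In WBC no cow was highest for more than 5. Without cow 833, 19 of 21 differences remained above 0, their median was 0.17 (-0.024 over all probes), and 1 member probe, S100A8, passed the unadjusted threshold. Its array was also the dimmest endometrium array, as given above, and the stroma marker mean was lowest there (13.58, against 14.36 to 14.99 in healthy cows). Its erythroid marker mean was 8.39, above the 7.65 to 7.86 of the other endometrium arrays, and its B cell marker mean was 9.48, above the 8.49 to 9.12 of the others. Its neutrophil marker mean was 8.73, within the 8.41 to 8.85 of the healthy cows. The part of these in the high S100 values was not tested.

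**Figure D4:**
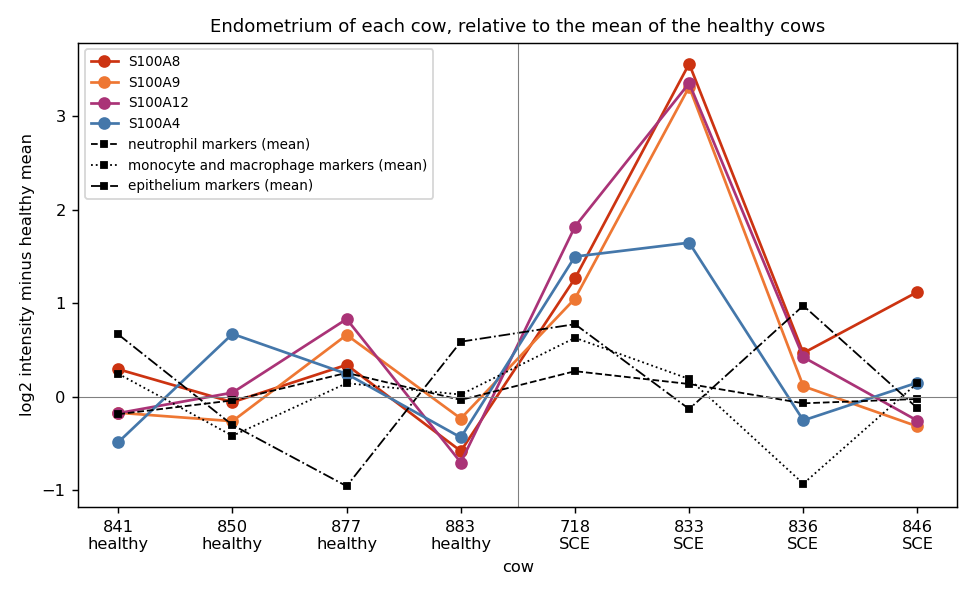
Log2 intensity of the 3 calgranulins and S100A4 (coloured lines) and the means of neutrophil, monocyte and macrophage, and epithelium markers (black) in the endometrium of each cow, minus the mean of the 4 healthy cows. Cows 718 and 833 stand high for all 4 genes. The marker means, which average several genes and so move less than single probes can, stay within about 1 of the healthy mean. Cow 718 is the highest for the neutrophil and the monocyte and macrophage means.

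In WBC, where the calgranulins were far brighter than in endometrium, SCE and healthy cows overlapped for all 21 member probes, and 1.3% of all probes showed no overlap. No member passed the adjusted test, nor did any other probe (0%), and 0 of 21 passed unadjusted, against 0.122% of all probes (57). Without a fold threshold, limma gave 1 member probe below the unadjusted threshold, the EST probe of S100A4 (0.37 higher in SCE cows), and 672 probes in all. Of the differences 13 lay above 0 and 8 below, while 48.1% of all probes were above 0, and the members' median was 0.07. S100A8 differed by 0.22 (SE 0.28), S100A9 by 0.07 (SE 0.16), S100A12 by 0.16 to 0.32 (SE 0.30 to 0.34) and S100A10 by -0.11 (SE 0.17). By the paper, SCE cows of a larger set had more leucocytes, lymphoid cells and monocytes in blood. Of 12 neutrophil markers, 10 had a lower and 2 a higher mean in WBC of SCE cows (median -0.13), none past the test. The part of blood cell composition in the S100 values was not tested.

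Whether the SCE difference itself differed between the tissues was tested as an interaction in 1 model of 4 groups. No member passed after adjustment, as for 0% of all probes, and 1 of 21 passed unadjusted, S100A10, against 0.496% of all probes (231). The SCE difference of S100A10 was 0.88 higher in endometrium than in WBC (SE 0.32, limma TREAT unadjusted p = 0.0358). The exact permutation test over cows gave p = 0.0571 for it. For S100A8 the SCE difference was 1.38 higher (SE 0.70, limma TREAT unadjusted p = 0.0837, exact permutation p = 0.1143). The value lay above 0 for 20 of 21 member probes and for 49.9% of all probes, and without cow 833 for 15 of 21, when 0 members passed unadjusted. Its median without cow 833 was 0.16 for the members and -0.026 for all probes. Without a fold threshold 1 member probe and 832 probes in all passed unadjusted.

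Over the 8 endometrium arrays, S100A9 and S100A12 went together most closely (Pearson r = 0.97, Spearman rho = 0.88, and r = 0.86 without cows 718 and 833, the farthest from the median). S100A8 correlated with S100A9 (r = 0.90, rho = 0.60) and with S100A12 (r = 0.89, rho = 0.71), but without cows 833 and 883 r was 0.42 and 0.45. Those cows held the highest and the lowest S100A8 value, and a narrower range can by itself lower r. How far the correlations rest on those cows is therefore not settled. Over the 8 WBC arrays S100A8 and S100A12 gave r = 0.84 (rho = 0.90, and 0.86 without cows 833 and 836), while S100A9 and S100A12 gave 0.20. With the neutrophil marker mean in endometrium, r was 0.4 for S100A8, 0.56 for S100A9, 0.64 for S100A12 and 0.7 for S100A4. In WBC, r with that mean was -0.18, 0.29, 0.09 and 0.23 in the same order. All of these are descriptions over 8 arrays that share a slide and its depth.

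Only probes that cleared background on each of the 8 arrays of a tissue were searched for genes of similar pattern, which left out S100A9 in endometrium. The genes whose levels were most like those of S100A8 in endometrium were ADA (r = 0.98), an unnamed transcript, CAMK1D, NCALD and XYLT2 (0.964 to 0.966), out of 27622 probes. For S100A12 they were TAL1 (0.98), 3 named only by transcript or locus codes, and TNFRSF13B (0.97). In WBC, over 28356 probes, S100A8 was most like C4H7orf41, DNAJC25, DPH5, an unnamed gene and DARS (0.969 to 0.985). S100A9 was most like UPP1, OGFRL1, an unnamed gene, ASS1 and ABCF1 (0.916 to 0.95), and S100A12 like VPS54, PCM1, SRGN, an unnamed transcript and TOM1L1 (0.977 to 0.99). With 8 arrays and this many probes, high correlations occur among many probes, and S100A12 itself came only at place 137 for S100A8 in endometrium.

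The genes that S100 proteins act through were described from fixed lists. Of the receptors and adaptors for extracellular S100A8 and S100A9, all 9 had a probe, and 4 were higher and 3 lower in endometrium than in WBC (limma TREAT adjusted). CD36, a fatty acid receptor that also binds calprotectin loaded with arachidonic acid, was well above background on no WBC array and at least 4.47-fold higher in endometrium of healthy cows and 14.9-fold in SCE cows. LY96, the partner of TLR4, was 2.195 higher and NPTN 1.86 higher, while MYD88, the adaptor below TLR4, was lower by -2.04. In endometrium, CD36 differed between SCE and healthy cows by 1.69, TLR4 by 0.50 and LY96 by -0.37, none past the test. Without cow 833, whose mean over the list was 11.48 against 10.29 to 10.72 on the other endometrium arrays, these were -0.38, 0.51 and -0.34, so the sign of CD36 rested on that cow. The 6 subunits of the NADPH oxidase, which S100A8 and S100A9 feed with arachidonic acid, were all lower in endometrium, with NCF4 at -5.82 and RAC2 at -4.60. Their median SCE difference in endometrium was 0.11, and 0.24 without cow 833.

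Of 10 binding partners inside the cell, 5 were higher and 4 lower in endometrium. PLAT, the plasminogen activator whose activation S100A10 promotes, was well above background on no WBC array and at least 835-fold higher in healthy and 582-fold in SCE endometrium. ANXA5 was 1.71, AHNAK 1.58 and CACYBP 1.565 higher. A list of further genes with S100 names had 9 with a probe. It held S100PBP, which is named for binding S100P and is not itself an S100 protein. Of these 9, 4 were higher and 2 lower in endometrium. S100G, the calcium-buffering calbindin of uterus and gut, was well above background on no WBC array of healthy cows and at least 463-fold higher in their endometrium, S100A16 was 2.03 and S100B 1.94 higher, and S100A7 was lower by -2.36. All 9 had a higher mean in SCE than in healthy endometrium, with a median of 0.37, and S100B (0.99) and S100G (0.93) led, but none passed adjusted or unadjusted. Without cow 833, 8 of 9 were higher, with a median of 0.06. S100PBP was among the higher genes both times, by 0.097 and by 0.060 without cow 833.

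The labelled tissues bore most of their markers. Of the 12 neutrophil markers with a probe, 10 were lower in endometrium, such as CSF3R, the G-CSF receptor (-7.59), and CXCR2, which was at least 172-fold higher in WBC than in endometrium of healthy cows. CD177 was well above background on no array of either tissue, CXCR1 on no endometrium array, CXCR2 on none of the healthy and 1 of the SCE arrays, and CSF3R on 3 and 2. Of the 7 stroma markers, 4 were higher in endometrium and 2 were lower on the probe used. COL1A2 was at least 2628-fold higher in healthy and 1742-fold in SCE cows. Of 10 epithelium markers 6 were higher, such as EPCAM (6.02) and KRT18 (5.97), and 3 were lower on the probe used. Beside the S100 differences in SCE endometrium, 9 of 12 neutrophil markers had a higher mean in SCE cows (median 0.18), and the mean over the list ran from 8.41 to 8.85 in healthy and 8.52 to 8.86 in SCE endometrium. All 9 T cell markers had a higher mean (median 0.29), as did all 4 B cell markers with a probe (0.28), 4 of 6 erythroid markers (0.06) and 9 of 10 epithelium markers (0.29), while all 7 stroma markers had a lower one (-0.39). Without cow 833 the medians were 0.02 for neutrophil markers (6 of 12 higher), 0.21 for T cell, 0.11 for B cell, 0.02 for erythroid, 0.49 for epithelium and -0.15 for stroma markers. No marker passed the test, adjusted or unadjusted, between SCE and healthy endometrium, and the part of these cells in the S100 values was not tested.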

How the data were processed

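Each array was hybridised in 1 colour with RNA of 1 tissue of 1 of 8 cows. The authors read spot intensity with Feature Extraction 10.10.1.1, software of Agilent. They deposited the scanner intensities without normalization, plus quantile-normalized intensities in a table. The latter differed by a median of 0.0415% from the scanner medians when these were quantile-normalized. The values used here were processed further and can differ more. The tissue difference of S100A12 probe A_73_115208 was -5.98 with them and -5.78 with the authors' values. Here the median spot signal without background subtraction was used, control spots and outlier spots (190 to 465 per array) were dropped, log2 values were quantile-normalized over 16 arrays and spots of 1 probe averaged. The number of arrays limits the precision.

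Groups came from the labels. SCE was compared with healthy separately in each tissue, and the tissues and the interaction in 1 model of 4 groups, using R 4.3.3 and limma 3.58.1 (lmFit, then treat at 1.2-fold, Benjamini-Hochberg adjustment over all probes at 0.05) and with exact permutation tests over cows. The fits were run on simulated arrays with independent noise, without paired cows or a dim array. That check covered the estimated size of planted changes. Further software was statmod 1.5.0, R's data.table (1.17.8), Python 3.11.15, numpy 2.4.6, pandas 2.3.3 and matplotlib 3.10.9.

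Members and gene lists were chosen with earlier results of these data known. All probes of a member were reported. For a list gene the probe with the highest mean signal was used, and at most 4 genes with the largest differences of a list were named, except where markers absent from endometrium are listed, which were picked after their values were seen. A bound on a fold sets the dim group, per array, at the lowest signal of any probe well above background. Where the dim probe's own signal is higher, that signal is used. Single probes can miss the mark at signals above this floor, so "at least" holds only under this rule. Among the list genes, FPR1, FPR2, MMP8, MARCO, S100P, CD79B, GP9 and GP1BB had no probe under that name. Some items of the lists are not reported here. Lists of monocyte and macrophage, B cell, erythroid and platelet markers were also described.

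The WBC and endometrium arrays of 1 cow come from the same animal and so are paired. The deviations of both from their group means correlated at -0.329 to 0.141 over 24189 probes. The limma p-values printed for the tissues and the interaction come from the model without a term for cow. With cow as a block the tissue adjusted p (limma TREAT) was 1.61e-07 for S100A8. It was 1.59e-08 and 4.97e-08 for the S100A14 probes.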

Additional observations from a re-analysis of the deposited data

Results flagged for a closer look

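In groups of 4 cows, 4 of 82 groups of member values held 1 cow far from the other cows, relative to the spread of the group, while chance gives about 1 in 20. S100A10 in SCE endometrium was 13.99 in cow 833, with the others at 13.18 to 13.30. S100A12 (probe A_73_115208) in healthy endometrium was 10.72 in cow 877, with the others at 9.95 to 10.001. S100A9 in healthy endometrium was 6.97 in the same cow, with the others at 6.05 to 6.14 and 2 of 4 arrays well above background. S100A9 in WBC of SCE cows was 15.4 in cow 836, with the others at 14.92 to 15.0.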

How the results depend on the processing

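Values were recomputed with other signals (processed signal at the 75th percentile, normexp with offset 50, the authors' own normalized values, quantiles set within a tissue), other thresholds (TREAT at 0 and 1.1-fold, dim probes dropped, a trended robust prior, gene means) and other samples (slide row or cow as a replicate block, 1 fit of 16 arrays, each cow left out). No member passed the adjusted test between SCE and healthy cows, or for the interaction, under any of these settings. Between tissues 17 member probes passed, 17 with the replicate block of cows, 16 to 19 under the other probe-level settings and 17 to 18 with a cow left out, and 8 of 10 genes with the mean of their probes. In endometrium 2 members were below the unadjusted threshold, and 1 under within-tissue normalization, the processed signal, the slide row as a block and the mean of probes, and 0 to 3 with a cow left out (0 without cow 841 or 850, and 1 without cow 833 or 877). Differences above 0 numbered 21, 10 of 10 for gene means, 20 with the processed signal, and 19 to 21 with a cow left out. The cause of these changes was not tested. Of 313 tissue values, 6 changed sides of the threshold. None of those past it in the report changed sign, while S100A6, not past it at -0.03, became 0.96 and passed with quantiles set within a tissue. In the interaction, the replicate block gave 0 adjusted calls. Dim endometrial S100A9 values limit the size of its fold.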

Other observations

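Monocyte and macrophage markers had a median SCE difference of 0.20 in WBC, with 8 of 10 above 0, and CSF1R, the receptor of their growth factor, was 0.64 higher (limma TREAT unadjusted p = 0.0241, adjusted p = 1). In endometrium 5 of the 10 were above 0, with a median of -0.02, and 3 were without cow 833 (-0.11). Of these markers 1 was higher and 4 lower in endometrium than in WBC, MRC1 (1.19) against CSF1R (-2.62), CD163 (-2.36) and CD68 (-2.34). The other blood lineages were lower in endometrium: all 9 T cell markers, all 4 B cell markers with a probe, 5 of 6 erythroid markers and the 3 platelet markers with a probe, with BLK, a B cell kinase, at -4.48, HBB, the beta chain of haemoglobin, at -6.98 and PF4 at -8.00. Between SCE and healthy cows none of these lineages had a marker past the adjusted test in either tissue, and none but CSF1R passed unadjusted.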
